A study of Mus musculus with 42 samples.

Results

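The endoplasmic reticulum unfolded protein response was followed here through 33 genes in mouse acute myeloid leukaemia cells carrying the MLL-AF9 fusion. The genes were taken from a list of endoplasmic reticulum chaperones, disulfide enzymes, stress sensors, degradation factors and translocon or export genes, and each was found by its symbol among the 55487 gene identifiers of the deposited tables. All 33 were present in both count tables, and all 33 had enough reads to be tested in ribosome footprints and in mRNA. They comprised 11 chaperones and cofactors, 5 disulfide enzymes, 5 genes of sensors and their effector Xbp1, 7 genes of endoplasmic reticulum-associated degradation, and 5 genes of translocation, export or ufmylation.

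Each of 21 mice gave 1 mRNA library (Smart-seq2, a full-length protocol for small inputs) and 1 footprint library (Ribo-lite, which sequences the mRNA fragments that ribosomes protect from nuclease), both from viable GFP-positive leukaemia cells sorted from bone marrow. The groups were 7 mice on a diet free of branched-chain amino acids (BCAA-free) given 5+3, 5 BCAA-free mice given vehicle, 4 mice on the standard amino acid (AA) diet given 5+3, and 5 AA mice given vehicle. 5+3 combines 5 daily doses of cytarabine (100 mg/kg) with doxorubicin (3 mg/kg) on days 1 to 3, and the vehicle was PBS. All recipients were male, 8 to 10 weeks old, with the genotype given as WT. They received leukaemia cells by vein without preconditioning, so the blood formation of the host was not ablated. The leukaemia cells of every group carried GFP and luciferase and descended from 1 terminally ill mouse, with expansion in culture, so the mice are replicates of 1 leukaemia. Marrow was taken at the point of maximum response to chemotherapy. The mouse names of the AA vehicle group end in a letter B, which the labels leave unexplained. Should the letter stand for a separate batch, batch and group cannot be told apart.

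The endoplasmic reticulum folds secreted and membrane proteins. When unfolded protein builds up in it, the transmembrane sensors IRE1 (gene Ern1), PERK (Eif2ak3) and ATF6 signal to the nucleus and to the ribosome. IRE1 splices the mRNA of Xbp1, ATF6 is cut to release a transcription factor, and PERK phosphorylates the initiation factor eIF2α, which slows translation and favours Atf4. Spliced XBP1 and cleaved ATF6 raise chaperones, disulfide enzymes and factors that return misfolded protein to the cytosol for degradation. Gene counts show neither the splicing of Xbp1 nor the cleavage of ATF6.

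Promoter sequences are shown for 5 members described below that held an ERSE or ERSE-II element, so that the element can be read beside the values. They were chosen with their values known. RefSeq promoters (GRCm38.p6, 250 bases before the start to 50 after, 300 bases in all) matched 28 of the 33 members. On both strands, 3 motifs were searched: the endoplasmic reticulum stress element ERSE (CCAAT and CCACG with any 9 bases between them), ERSE-II (ATTGG and CCACG with any base between them) and the unfolded protein response element UPRE (TGACGTGG). All 3 motifs share the letters CCACG, which UPRE holds on its opposite strand. The capitals mark the motif in the sequences below, each written 5′ to 3′ on the gene's strand, with lower-case letters elsewhere.
Hspa5, chr2:34771840-34772139, plus strand: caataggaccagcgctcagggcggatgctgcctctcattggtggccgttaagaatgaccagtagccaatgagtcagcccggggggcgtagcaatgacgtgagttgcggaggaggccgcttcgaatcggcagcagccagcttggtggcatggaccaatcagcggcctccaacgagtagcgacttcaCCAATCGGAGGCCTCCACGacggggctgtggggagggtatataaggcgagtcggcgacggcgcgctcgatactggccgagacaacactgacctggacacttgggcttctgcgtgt
Hsp90b1, chr10:86705395-86705694, minus strand: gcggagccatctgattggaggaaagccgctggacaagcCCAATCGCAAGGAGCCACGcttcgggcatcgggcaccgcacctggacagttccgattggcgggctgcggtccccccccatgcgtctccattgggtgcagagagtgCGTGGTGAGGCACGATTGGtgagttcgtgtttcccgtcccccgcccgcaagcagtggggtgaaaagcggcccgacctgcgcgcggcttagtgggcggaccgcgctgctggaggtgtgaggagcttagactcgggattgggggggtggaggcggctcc
Creld2, chr15:88819396-88819695, plus strand: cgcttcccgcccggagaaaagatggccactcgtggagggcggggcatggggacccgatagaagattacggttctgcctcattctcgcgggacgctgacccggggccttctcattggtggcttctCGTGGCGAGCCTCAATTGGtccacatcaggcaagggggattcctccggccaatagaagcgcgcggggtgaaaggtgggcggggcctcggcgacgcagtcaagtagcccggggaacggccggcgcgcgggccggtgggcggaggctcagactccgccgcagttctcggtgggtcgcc
Syvn1, chr19:6046326-6046625, plus strand: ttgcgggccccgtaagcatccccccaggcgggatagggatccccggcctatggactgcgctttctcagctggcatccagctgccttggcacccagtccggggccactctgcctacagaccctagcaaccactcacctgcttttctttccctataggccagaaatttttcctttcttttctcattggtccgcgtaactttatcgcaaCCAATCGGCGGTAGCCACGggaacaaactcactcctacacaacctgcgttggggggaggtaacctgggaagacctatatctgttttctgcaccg
Herpud1, chr8:94386179-94386478, plus strand: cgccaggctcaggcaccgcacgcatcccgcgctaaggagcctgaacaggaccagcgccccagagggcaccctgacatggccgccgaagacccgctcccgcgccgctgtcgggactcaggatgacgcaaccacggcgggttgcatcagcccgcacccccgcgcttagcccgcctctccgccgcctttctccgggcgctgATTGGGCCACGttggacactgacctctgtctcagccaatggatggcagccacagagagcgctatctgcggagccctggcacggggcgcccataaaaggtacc

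Relative to the annotated start, the ERSE began at base -65 in Hspa5 and at base -44 in Syvn1, and the ERSE-II of Herpud1 began at base -52. Hsp90b1 held 2 ERSE copies, on the gene's strand at -212 and on the opposite strand at -107, and Creld2 held 1 on the opposite strand at -126. An ERSE was present in 8 of the 28 member promoters (Calr, Canx, Creld2, Dnajc3, Hsp90b1, Hspa5, Pdia6 and Syvn1), against 39 of all 32851 promoters (0.119%). ERSE-II was present in 2 members (Dnajb11 and Herpud1), against 12 of all promoters (0.0365%), and UPRE in 1 member (Sec24d), against 222 (0.676%). The list was drawn from known unfolded protein response genes, so these shares are a description of it and not independent evidence.

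Footprint libraries held 2697092 to 8863472 gene counts (median 4683466) and mRNA libraries 30996200 to 70437713 (median 48804734). The leukaemia markers Hoxa9, Meis1, Kit, Mpo, Elane, Prtn3, Ctsg and Myb had footprints in all 21 libraries. Plasma cells are secretory cells rich in endoplasmic reticulum genes. Of their markers, Mzb1 was at 0 in 17 of 21 footprint libraries, Tnfrsf17 in 18, Derl3 in 14 and Sdc1 in 11. Prdm1 was at 0 in 9, Irf4 in 8 and Jchain in 2, and Jchain had at most 7 counts. In the deeper mRNA libraries Mzb1 was at 0 in 3, Tnfrsf17 in 10, Derl3 in 2, Sdc1 in 1, Prdm1 in 8, Irf4 in 3 and Jchain in 2. Derl3 reached 551 and Jchain 513 mRNA counts. The part of plasma cells in the members' levels was not tested. Levels of a gene are given as CPM, counts per 1000000 counts of the genes kept for testing, after TMM scaling of each library. They are not corrected for gene length, so they are compared between mice and not between genes. Sums and shares over a list of genes use all gene counts of a library, without TMM scaling. Differences are log2 changes from edgeR's quasi-likelihood test. Each standard error (SE) is the absolute log2 change divided by the square root of that test's F statistic. P-values were adjusted by the Benjamini-Hochberg method over all genes tested. A gene is said to have risen or fallen where that adjusted p was under 0.05. In sorted bulk samples, fewer cells of a type and less RNA per cell cannot be told apart.

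The footprint share of the 33 genes was highest in AA mice given 5+3. Summed over the list, it was 0.655% ± 0.0836 of the library in BCAA-free 5+3 mice (SD, n = 7), 0.660% ± 0.0238 in BCAA-free vehicle mice (n = 5), 0.879% ± 0.0607 in AA 5+3 mice (n = 4) and 0.705% ± 0.0480 in AA vehicle mice (n = 5). Gene by gene, the AA 5+3 mean was the highest of the 4 groups for 24 of 33 members, and the BCAA-free 5+3 mean was the lowest for 18. The mice of a group were not alike in this. In the AA 5+3 group replicate 3 had the highest value for 18 of 33 members, and in the BCAA-free 5+3 group replicates 2 and 5 were the 2 highest of 7 for 18 members while replicate 4 was the lowest for 15.

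**Figure D1:**
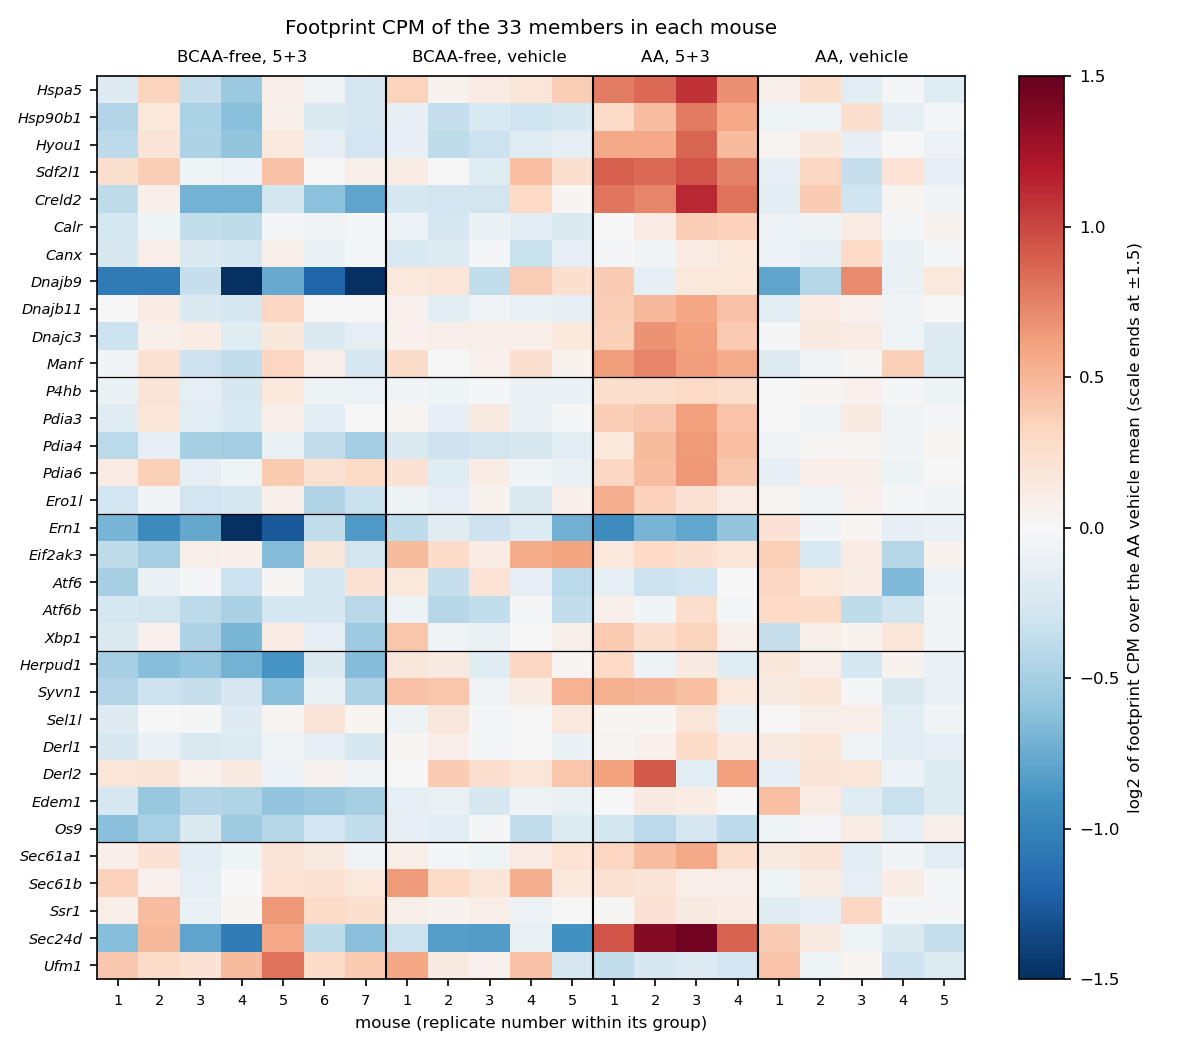
Footprint level of each of the 33 genes (rows, by role) in each of the 21 mice (columns, by group). Colours show log2 of CPM over the gene's mean in AA vehicle mice, with the scale ending at ±1.5. The 4 AA 5+3 columns are red for most chaperones and disulfide enzymes. Of the 7 BCAA-free 5+3 columns, those of replicates 2 and 5 are also red for most of these genes. The other BCAA-free 5+3 columns are mostly blue. Ern1 is low in both 5+3 groups and Ufm1 is high in BCAA-free 5+3.

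On the AA diet, 5+3 was followed by higher footprints of 15 of the 33 genes and lower footprints of 2, against 3.49% higher and 3.12% lower among all 15723 genes tested. The 15 were 8 of 11 chaperones (Hspa5, Hsp90b1, Hyou1, Sdf2l1, Creld2, Dnajb11, Dnajc3, Manf), 3 of 5 disulfide enzymes (Pdia3, Pdia4, Pdia6), 2 of 7 degradation genes (Syvn1, Derl2) and 2 of 5 translocation or export genes (Sec61a1, Sec24d). The 2 that fell were the sensor Ern1 and the degradation lectin Os9, and no sensor rose. The median log2 change was 0.27 over the members and -0.02 over all genes. In 15 members all 4 AA 5+3 mice lay above all 5 AA vehicle mice (5.76% of all genes), and 13 of these were among the 15 that passed the test. For Ern1 and Os9 all 4 AA 5+3 mice lay below all 5 AA vehicle mice (4.55% of all genes). Without AA 5+3 replicate 3, 11 members passed: Hsp90b1 (adjusted p = 0.0774), Pdia6 (0.0541), Sec61a1 (0.0563), Sec24d (0.0534), Syvn1 (0.105) and Os9 (0.0553) no longer did, each with its sign unchanged.

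Under 5+3, 24 of the 33 genes had lower footprints in BCAA-free mice than in AA mice and 1 had higher, against 15.8% lower and 12.5% higher among all genes. The genes that fell were 10 of 11 chaperones, all 5 disulfide enzymes, 2 of 5 in the sensor group (Atf6b and Xbp1), 5 of 7 degradation genes and 2 of 5 translocation or export genes, and the gene that rose was Ufm1. The median log2 difference was -0.48 over the members and 0.00 over all genes. In 21 members all 7 BCAA-free 5+3 mice lay below all 4 AA 5+3 mice (10.2% of all genes). This comparison and the 5+3 effect on the AA diet share the 4 AA 5+3 mice, so their values are not independent of each other.

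On the BCAA-free diet, 5+3 was followed by lower footprints of 7 of the 33 genes (21.2%) and higher footprints of 0, against 11.9% lower and 8.76% higher among all genes. Over both directions the members' share was close to the 20.6% of all genes. The 7 were Dnajb9, the sensors Ern1 and Eif2ak3, and 4 of 7 degradation genes (Herpud1, Syvn1, Edem1, Os9). In Herpud1, Syvn1 and Edem1 all 7 BCAA-free 5+3 mice lay below all 5 BCAA-free vehicle mice (4.74% of all genes), and in 0 members above them (3.32%). For the higher direction, where edgeR's quasi-likelihood test gave 0, 1 member had an unadjusted p under 0.05. The median log2 change was -0.11 over the members and -0.02 over all genes. Markers of other blood cells moved with this comparison. All 5 erythroid markers tested and all 7 neutrophil markers fell in footprints after 5+3 on the BCAA-free diet. Their summed CPM ranged from 7.67 to 26.0 (erythroid, 8 genes) and from 31.7 to 398 (neutrophil, 7 genes) in BCAA-free 5+3 mice and from 115 to 215 and from 368 to 589 in BCAA-free vehicle mice.

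The same erythroid markers were also lower in BCAA-free 5+3 mice than in AA 5+3 mice (all 5 tested), as were 3 of 7 neutrophil markers. Summed CPM ranged from 92.9 to 142 (erythroid) and 173 to 469 (neutrophil) in AA 5+3 mice, and from 34.7 to 137 and 381 to 498 in AA vehicle mice. Within the AA diet 0 of 5 erythroid markers and 1 of 7 neutrophil markers passed after 5+3. Macrophage markers summed to 164 to 252 CPM in AA 5+3 mice and 267 to 313 CPM in AA vehicle mice, without overlap. Most of that sum was Adgre1 (means of 56.2 and 107 CPM) and Vcam1 (141 and 172 CPM), and of 5 tested Adgre1 alone fell. The low C1qa, C1qb and C1qc had higher means in AA 5+3 mice (2.45, 2.22 and 1.95 CPM). In AA vehicle mice these were 1.18, 1.90 and 0.957 CPM, so the sum does not describe all macrophage markers. B cell markers, low in all mice, summed to 6.39 to 8.61 CPM in AA 5+3 mice and 8.93 to 12.9 CPM in AA vehicle mice. Leukaemia progenitor markers held 1.16% ± 0.104 of footprint counts in AA 5+3 mice and 0.878% ± 0.137 in AA vehicle mice (SD, n = 4 and 5). Of 8 tested, Mpo and Prtn3 were higher and Kit lower after 5+3 on the AA diet. The share was 0.926% ± 0.0840 in BCAA-free 5+3 mice and 0.970% ± 0.128 in BCAA-free vehicle mice (SD, n = 7 and 5). Like that of the members, its mean was highest in AA 5+3 mice. No globin gene was at 0 in any footprint library, while Klf1 was at 0 in 3, Alas2 in 2 and Slc4a1 in 1, and no neutrophil marker was at 0 in any. The part of these cells in the members' differences was not tested.

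With vehicle, 0 of the 33 genes differed between the diets in footprints by edgeR's quasi-likelihood test, where 2.04% of all genes did (0.642% higher and 1.4% lower in BCAA-free mice). DESeq2 gave 1, and 5 members had an unadjusted p under 0.05. All 5 BCAA-free vehicle mice lay above all 5 AA vehicle mice for Sec61b (2.04% of all genes lay so) and below them for Hyou1, Pdia4 and Ern1 (2.79%). Sec61b, a subunit of the translocation channel, averaged 71.3 ± 10.7 CPM in BCAA-free vehicle mice and 54.9 ± 4.32 CPM in AA vehicle mice (SD, n = 5 each; log2 0.37, adjusted p = 0.054).

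The 5+3 effect itself differed between the diets for 15 of the 33 genes (interaction of diet and treatment), in each case lower on the BCAA-free diet, where 3.8% of all genes were lower and 3.29% higher (7.09% in all). These were 7 chaperones (Hspa5, Hyou1, Sdf2l1, Creld2, Dnajb9, Dnajc3, Manf), 3 disulfide enzymes (Pdia3, Pdia4, Ero1l), the sensor Eif2ak3, 3 degradation genes (Herpud1, Syvn1, Derl2) and Sec61a1. The median difference of log2 changes was -0.47 over the members and -0.02 over all genes. All 5 erythroid markers also had a lower 5+3 effect on the BCAA-free diet. The count was 9 without AA 5+3 replicate 1 and 9 without BCAA-free vehicle replicate 5. Of the 21 refits that left out 1 mouse, the interaction call was lost in 13 for Sec61a1, 12 for Derl2, 10 for Ero1l, 10 for Hyou1, 6 for Eif2ak3, 2 for Dnajb9 and 1 for Pdia3, and in none for the other 8 members.

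**Figure D2:**
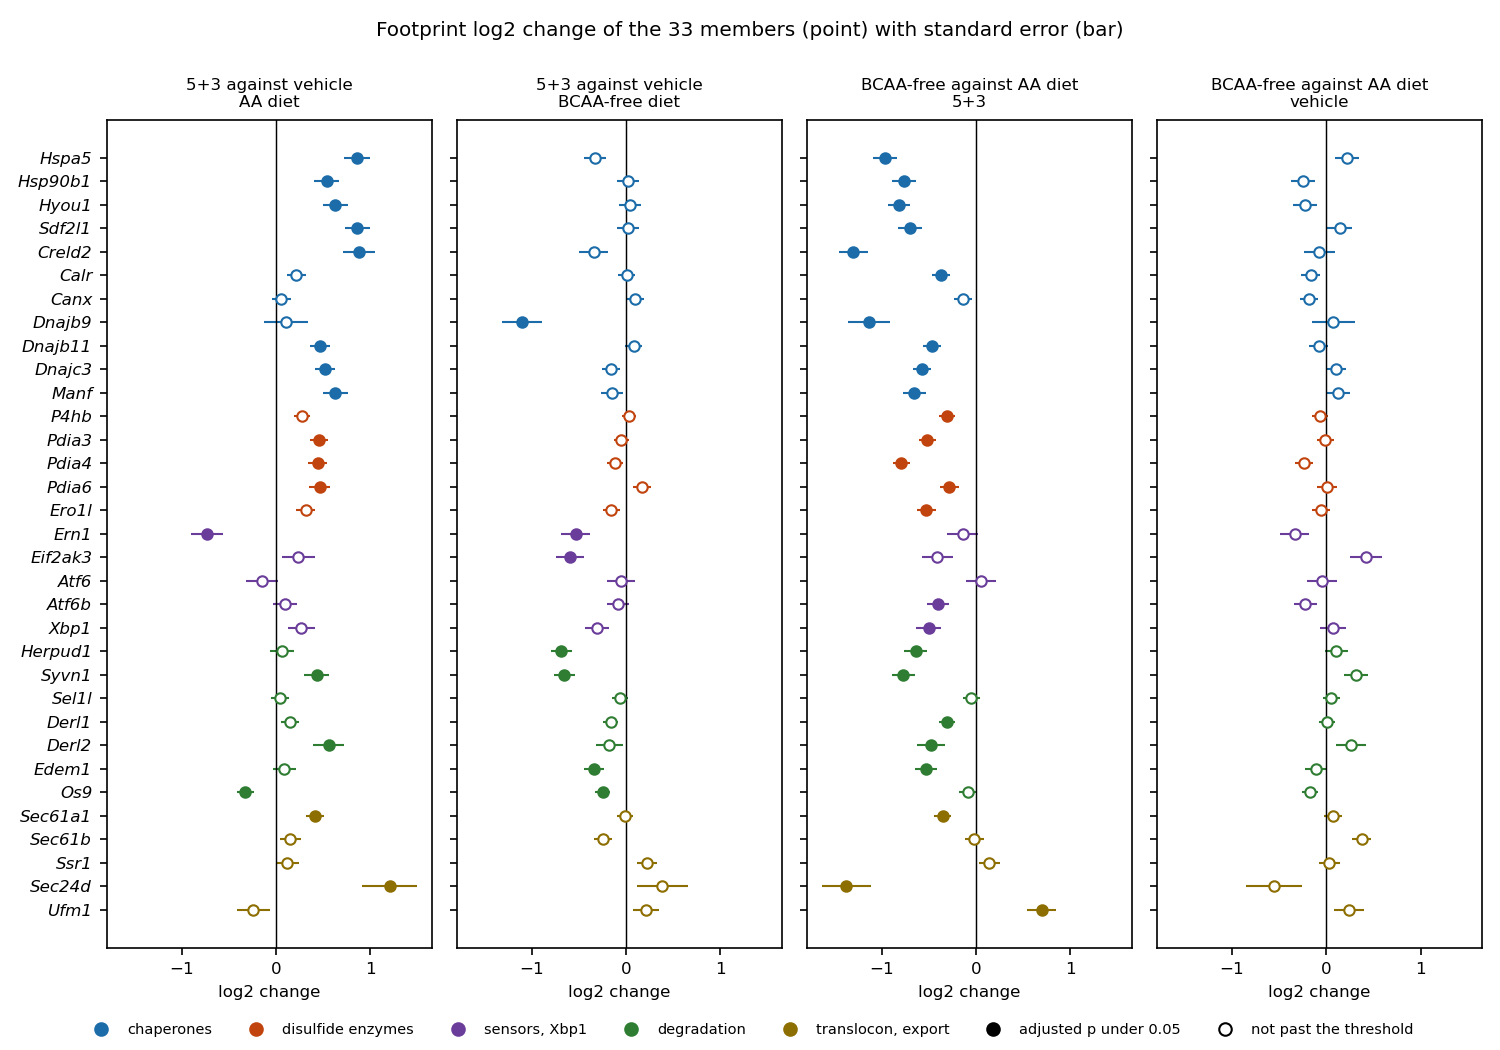
Log2 change of footprints (points) with SE (bars) for each of the 33 genes. Panels show 5+3 against vehicle on each diet, and BCAA-free against AA under 5+3 and with vehicle. Filled points have an adjusted p under 0.05. Most chaperones and disulfide enzymes lie right of 0 on the AA diet and near 0 on the BCAA-free diet, and 24 genes are lower and 1 is higher in the diet comparison under 5+3.

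Among the chaperones, Hspa5 encodes BiP, the main Hsp70 of the compartment and the protein that holds the sensors inactive. Its footprint level ranged from 430.3 to 799 CPM with a median of 553 in the 7 BCAA-free 5+3 mice, and was 802, 659, 689.7, 718 and 817 CPM in BCAA-free vehicle mice. It was 1077, 1142, 1346 and 1021 CPM in AA 5+3 mice and 668, 759.9, 563, 619 and 560.1 CPM in AA vehicle mice. The AA 5+3 mice lay above every mouse of the other groups, and the BCAA-free 5+3 mice overlapped both vehicle groups. After 5+3 Hspa5 rose 1.81-fold on the AA diet (log2 0.86 ± 0.14 SE, adjusted p = 0.000488) and had a log2 change of -0.33 ± 0.12 on the BCAA-free diet (adjusted p = 0.0523). Under 5+3 it was lower in BCAA-free mice by a log2 difference of -0.97 ± 0.13 (adjusted p = 6.96e-06), and the diets differed in the 5+3 effect by -1.18 ± 0.18 (adjusted p = 0.000762). Hspa5 overlaps Rabepk in the annotation, and since the strand setting of the counting is not given, reads in the overlap cannot be assigned between them.

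Hyou1 encodes a large Hsp70-like protein that exchanges nucleotide on BiP. Its footprints ranged from 117 to 202 CPM with a median of 145 in BCAA-free 5+3 mice, and were 162, 135, 141, 156 and 159.6 CPM in BCAA-free vehicle mice. They were 261, 261, 324 and 245 CPM in AA 5+3 mice and 181, 198, 162, 175 and 166 CPM in AA vehicle mice. Highest of all were the AA 5+3 mice, and BCAA-free 5+3 mice spanned the range of both vehicle groups. Hyou1 rose 1.55-fold after 5+3 on the AA diet (log2 0.63 ± 0.13, adjusted p = 0.00473) and had a log2 change of 0.04 on the BCAA-free diet (adjusted p = 0.844). Under 5+3 the diet difference was -0.82 ± 0.12 (adjusted p = 2.77e-05), and the interaction was -0.59 ± 0.17 (adjusted p = 0.038), a call lost without any 1 of 10 of the 21 mice.

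Creld2, a secreted stress-induced protein with disulfide exchange activity, had the largest fall among the chaperones between the diets under 5+3. Its footprints ranged from 8.49 to 15.5 CPM with a median of 9.57 in BCAA-free 5+3 mice, and were 12.2, 12.0, 12.2, 18.1 and 15.0 CPM in BCAA-free vehicle mice. They were 25.5, 24.4, 32.1 and 25.8 CPM in AA 5+3 mice and 13.0, 19.1, 12.0, 15.1 and 14.3 CPM in AA vehicle mice. Every AA 5+3 mouse exceeded every other mouse, with no overlap. Creld2 rose 1.84-fold after 5+3 on the AA diet (log2 0.88 ± 0.17, adjusted p = 0.00213), against a log2 change of -0.34 ± 0.15 on the BCAA-free diet (adjusted p = 0.112). The diet difference under 5+3 was -1.30 ± 0.15 (adjusted p = 2.32e-06) and the interaction -1.23 ± 0.23 (adjusted p = 0.00263).

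Hsp90b1 encodes GRP94, the Hsp90 of the compartment. Its footprints ranged from 568 to 974 CPM with a median of 735 in BCAA-free 5+3 mice, and were 804, 681, 745, 709.8 and 742 CPM in BCAA-free vehicle mice. They were 1062, 1209, 1506 and 1300.3 CPM in AA 5+3 mice and 835, 839, 1040, 795 and 863 CPM in AA vehicle mice. All AA 5+3 mice were above all AA vehicle mice, with AA vehicle replicate 3 close below the lowest of them. Hsp90b1 rose 1.45-fold after 5+3 on the AA diet (log2 0.54 ± 0.13, adjusted p = 0.016) and had a log2 change of 0.02 on the BCAA-free diet (adjusted p = 0.921). The diet difference under 5+3 was -0.76 ± 0.12 (adjusted p = 8.47e-05), and the interaction of -0.52 ± 0.18 did not pass (adjusted p = 0.0754).

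Of the other chaperones, 4 rose on the AA diet and 3 did not pass there. Sdf2l1, a BiP cofactor, ranged from 51.0 to 73.5 CPM in BCAA-free 5+3 mice, 47.7 to 74.3 CPM in BCAA-free vehicle mice, 90.9 to 104 CPM in AA 5+3 mice and 42.7 to 67.4 CPM in AA vehicle mice. The AA 5+3 range was above the others, and Sdf2l1 rose 1.82-fold after 5+3 on the AA diet (adjusted p = 0.000391). Dnajb11 and Dnajc3, J-domain partners of BiP, and Manf, a secreted protein that binds it, rose on the AA diet by log2 0.47, 0.52 and 0.63. All 3 were lower in BCAA-free than in AA mice under 5+3. The lectin chaperones of glycoproteins behaved less uniformly: Calr fell between the diets under 5+3 (log2 -0.38, adjusted p = 0.0047), and Canx had a log2 difference of -0.14 (adjusted p = 0.285). Neither passed after 5+3 on the AA diet, where Calr had a log2 change of 0.22 (adjusted p = 0.216) and Canx of 0.06.

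Dnajb9, a J-domain protein that represses IRE1 through BiP, had another order of groups, and its values by mouse are given because they were seen to differ from those of the other chaperones. Its footprints ranged from 4.27 to 10.7 CPM with a median of 6.53 in BCAA-free 5+3 mice, and were 15.2, 15.5, 10.6, 17.6 and 16.2 CPM in BCAA-free vehicle mice. They were 17.8, 12.4, 15.2 and 15.2 CPM in AA 5+3 mice and 7.89, 10.1, 22.2, 12.8 and 15.2 CPM in AA vehicle mice. Most BCAA-free 5+3 mice were the lowest of all, while the AA 5+3 mice lay within the wide range of AA vehicle mice. Dnajb9 had a log2 change of 0.11 ± 0.24 after 5+3 on the AA diet (adjusted p = 0.84) and fell on the BCAA-free diet (log2 -1.11 ± 0.21, adjusted p = 0.00107). Under 5+3 the diet difference was -1.14 ± 0.22 (adjusted p = 0.000682). The gene had as few as 17 footprint counts in a library, which limits its precision.

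**Figure D3:**
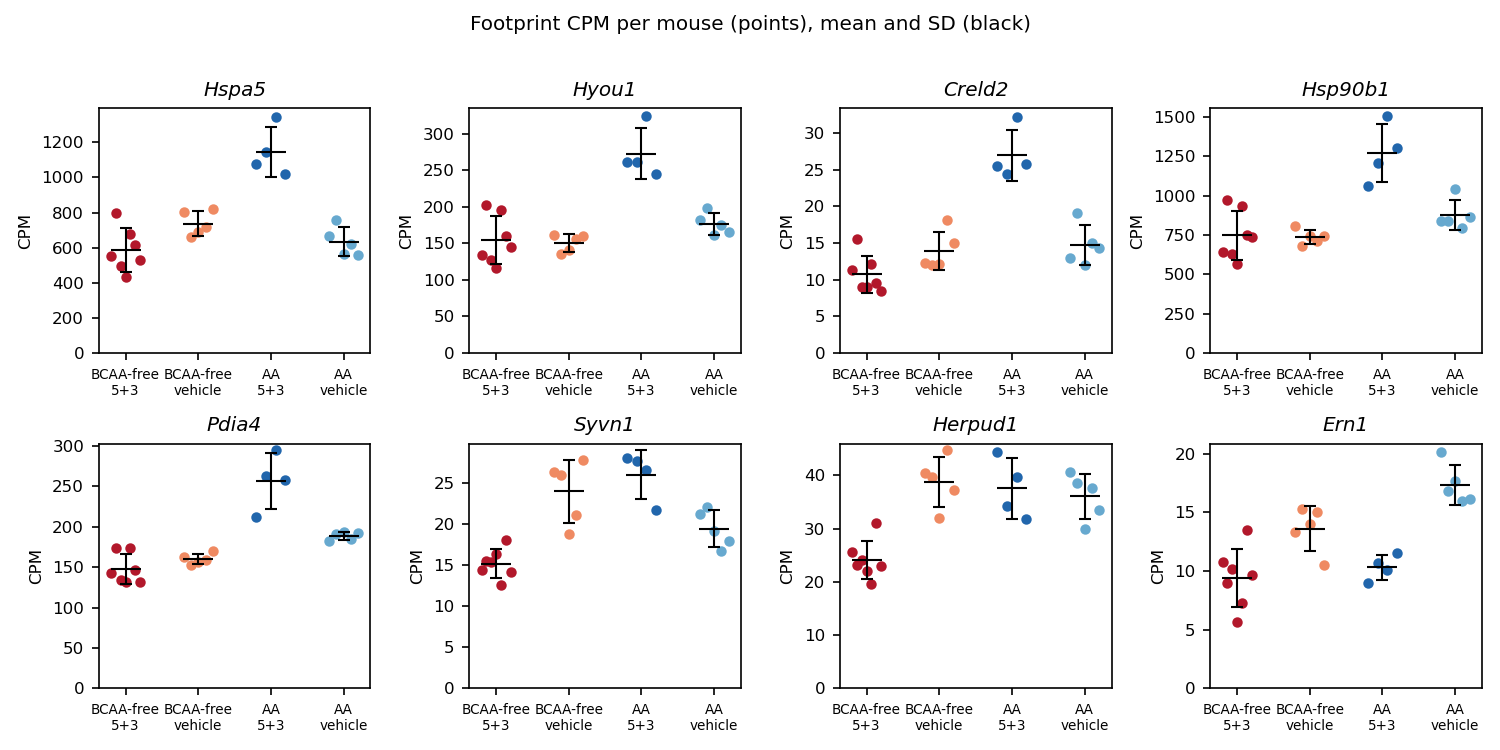
Footprint level in CPM (vertical axes, starting at 0) of 8 genes in each mouse (points), with the group mean and SD (black), for BCAA-free 5+3, BCAA-free vehicle, AA 5+3 and AA vehicle. The AA 5+3 points stand above the other groups for Hspa5, Hyou1, Creld2, Hsp90b1 and Pdia4, the BCAA-free 5+3 points form the lowest group for Syvn1 and Herpud1, and both 5+3 groups are low for Ern1.

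Disulfide enzymes form and rearrange the disulfide bonds of folding proteins. Pdia4, a protein disulfide isomerase, ranged from 131 to 174 footprint CPM with a median of 143 in BCAA-free 5+3 mice, and was 162, 153, 156, 159 and 169 CPM in BCAA-free vehicle mice. It was 211, 262, 294 and 258 CPM in AA 5+3 mice and 183, 191, 194, 184 and 192 CPM in AA vehicle mice. No other group overlapped the AA 5+3 mice, and the AA vehicle mice also lay above all BCAA-free mice. Pdia4 rose 1.36-fold after 5+3 on the AA diet (log2 0.44 ± 0.10, adjusted p = 0.00776) and had a log2 change of -0.11 on the BCAA-free diet (adjusted p = 0.359). It had the smallest adjusted p of the members between the diets under 5+3 (log2 -0.79 ± 0.09, adjusted p = 1.28e-06), and its interaction was -0.56 ± 0.13 (adjusted p = 0.0131).

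Pdia3, the isomerase that works with calnexin and calreticulin on glycoproteins, ranged from 479 to 637 footprint CPM with a median of 496 in BCAA-free 5+3 mice, and was 578, 512, 617, 523 and 552 CPM in BCAA-free vehicle mice. It was 723, 742, 861 and 753 CPM in AA 5+3 mice and 559, 539, 615, 542 and 547 CPM in AA vehicle mice. Again the 4 AA 5+3 mice stood above all others. Pdia3 rose 1.37-fold after 5+3 on the AA diet (log2 0.46 ± 0.10, adjusted p = 0.00512), and its diet difference under 5+3 was -0.52 ± 0.09 (adjusted p = 0.000148). Its interaction of -0.51 ± 0.13 had an adjusted p of 0.0187, and of 0.055 without AA 5+3 replicate 3.

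Pdia6, an isomerase that also binds the luminal part of IRE1, ranged from 239 to 347 footprint CPM with a median of 311 in BCAA-free 5+3 mice, and was 308, 234, 287, 259 and 247 CPM in BCAA-free vehicle mice. It was 330.3, 366, 418 and 352 CPM in AA 5+3 mice and 245, 284, 281, 252 and 266 CPM in AA vehicle mice. The AA 5+3 mice were above the AA vehicle mice but overlapped the BCAA-free 5+3 mice. Pdia6 rose 1.38-fold on the AA diet (log2 0.46 ± 0.11, adjusted p = 0.0109) and was lower between the diets under 5+3 by -0.28 ± 0.10 (adjusted p = 0.0375), a call lost without any 1 of 7 of the 11 mice compared.

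Ero1l (Ero1a in current nomenclature), the oxidase that recharges the isomerases, ranged from 50.7 to 73.0 footprint CPM with a median of 56.7 in BCAA-free 5+3 mice, and was 65.8, 62.5, 71.5, 59.7 and 73.0 CPM in BCAA-free vehicle mice. It was 101, 87.7, 80.6 and 75.3 CPM in AA 5+3 mice and 71.4, 67.4, 72.3, 68.0 and 67.1 CPM in AA vehicle mice. The 4 AA 5+3 mice were the highest of all, with replicate 4 close to the rest. Ero1l had a log2 change of 0.31 ± 0.11 after 5+3 on the AA diet (adjusted p = 0.0706) and fell between the diets under 5+3 (log2 -0.53 ± 0.10, adjusted p = 0.000302). P4hb, the archetypal isomerase, fell in the same comparison (log2 -0.31, adjusted p = 0.00612) and had a log2 change of 0.27 on the AA diet (adjusted p = 0.0576).

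In the sensor group, Ern1 fell after 5+3 on both diets and Eif2ak3 on the BCAA-free diet, while Atf6b and Xbp1 were lower between the diets under 5+3. Ern1 ranged from 5.69 to 13.5 footprint CPM with a median of 9.63 in BCAA-free 5+3 mice, and was 13.3, 15.2, 14.0, 15.1 and 10.5 CPM in BCAA-free vehicle mice. It was 9.01, 10.7, 10.1 and 11.5 CPM in AA 5+3 mice and 20.1, 16.9, 17.7, 16.0 and 16.1 CPM in AA vehicle mice. Both 5+3 groups were low, the AA 5+3 mice without overlap with AA vehicle mice and the BCAA-free 5+3 mice with overlap. Ern1 fell after 5+3 on the AA diet (log2 -0.73 ± 0.17, adjusted p = 0.0113) and on the BCAA-free diet (log2 -0.54 ± 0.15, adjusted p = 0.0132), and the interaction was 0.19 ± 0.23 (adjusted p = 0.652).

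Eif2ak3 ranged from 5.90 to 10.3 footprint CPM with a median of 7.65 in BCAA-free 5+3 mice, and was 12.8, 11.2, 10.0, 13.6 and 13.9 CPM in BCAA-free vehicle mice. It was 10.3, 11.3, 10.9 and 10.5 CPM in AA 5+3 mice and 11.8, 7.86, 10.1, 6.84 and 9.53 CPM in AA vehicle mice. The BCAA-free 5+3 mice overlapped most of the range of AA vehicle mice. Only the highest of them reached the lowest BCAA-free vehicle and AA 5+3 mice. Eif2ak3 fell after 5+3 on the BCAA-free diet (log2 -0.59 ± 0.15, adjusted p = 0.00755), had a log2 change of 0.24 on the AA diet (adjusted p = 0.468), and its interaction was -0.83 ± 0.23 (adjusted p = 0.0319), a call lost without any 1 of 6 of the 21 mice. Ern1 and Eif2ak3 had as few as 24 and 21 counts in a footprint library.

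Atf6 ranged from 16.3 to 26.6 footprint CPM with a median of 21.1 in BCAA-free 5+3 mice, and was 25.6, 18.0, 26.4, 21.1 and 17.3 CPM in BCAA-free vehicle mice. It was 20.8, 18.3, 18.8 and 22.8 CPM in AA 5+3 mice and 28.4, 25.5, 24.7, 14.4 and 21.5 CPM in AA vehicle mice. All groups overlapped, and the log2 differences lay between -0.15 and 0.10 over the 5 comparisons, with no adjusted p under 0.666. Its paralogue Atf6b ranged from 27.3 to 31.8 CPM with a median of 31.5 in BCAA-free 5+3 mice, was 36.2, 28.3, 29.5, 37.6 and 29.6 CPM in BCAA-free vehicle mice, 40.1, 37.1, 45.7 and 37.7 CPM in AA 5+3 mice, and 46.9, 46.4, 29.2, 31.0 and 37.0 CPM in AA vehicle mice. The AA vehicle mice were widely spread, and between the 5+3 groups there was no overlap. Atf6b fell between the diets under 5+3 (log2 -0.40 ± 0.12, adjusted p = 0.0122, and 0.0686 without AA 5+3 replicate 3).

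Xbp1, the transcription factor that IRE1 activates by splicing, ranged from 29.2 to 51.4 footprint CPM with a median of 40.4 in BCAA-free 5+3 mice, and was 62.5, 45.5, 43.6, 47.2 and 49.9 CPM in BCAA-free vehicle mice. It was 61.8, 56.7, 59.4 and 50.1 CPM in AA 5+3 mice and 37.1, 50.2, 48.6, 53.5 and 45.8 CPM in AA vehicle mice. The AA 5+3 mice were mostly higher than the rest, with overlap in each comparison. Xbp1 fell between the diets under 5+3 (log2 -0.50 ± 0.13, adjusted p = 0.00612), and its log2 change after 5+3 was 0.27 ± 0.14 on the AA diet (adjusted p = 0.283) and -0.31 ± 0.13 on the BCAA-free diet (adjusted p = 0.0857).

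The degradation genes supplied most of the falls after 5+3 on the BCAA-free diet. Syvn1 encodes HRD1, the ubiquitin ligase of the degradation channel. Its footprints ranged from 12.6 to 18.1 CPM with a median of 15.4 in BCAA-free 5+3 mice, and were 26.4, 26.0, 18.8, 21.1 and 27.8 CPM in BCAA-free vehicle mice. They were 28.1, 27.7, 26.7 and 21.7 CPM in AA 5+3 mice and 21.3, 22.1, 19.2, 16.7 and 18.0 CPM in AA vehicle mice. The BCAA-free 5+3 mice did not overlap either the BCAA-free vehicle or the AA 5+3 mice. Syvn1 fell after 5+3 on the BCAA-free diet (log2 -0.65 ± 0.11, adjusted p = 0.000425) and rose on the AA diet (log2 0.43 ± 0.13, adjusted p = 0.0461), the second call being lost without any 1 of 6 of the 9 mice compared. Its interaction was -1.09 ± 0.17 (adjusted p = 0.00106) and its diet difference under 5+3 was -0.77 ± 0.12 (adjusted p = 5.72e-05). Syvn1 overlaps Mrpl49 in the annotation.

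Herpud1, a stress-induced membrane protein that recruits factors to that ligase, ranged from 19.5 to 31.0 footprint CPM with a median of 23.1 in BCAA-free 5+3 mice, and was 40.5, 39.7, 31.9, 44.7 and 37.2 CPM in BCAA-free vehicle mice. It was 44.4, 34.2, 39.8 and 31.7 CPM in AA 5+3 mice and 40.6, 38.6, 30.0, 37.6 and 33.6 CPM in AA vehicle mice. The BCAA-free 5+3 mice lay below the BCAA-free vehicle and AA 5+3 mice, and the highest of them reached the lowest AA vehicle mouse. Herpud1 fell after 5+3 on the BCAA-free diet (log2 -0.69 ± 0.11, adjusted p = 0.000214) and had a log2 change of 0.06 on the AA diet (adjusted p = 0.825). Its diet difference under 5+3 was -0.64 ± 0.12 (adjusted p = 0.000332), and its interaction was -0.75 ± 0.17 (adjusted p = 0.0108).

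Edem1, a mannosidase-like lectin that marks misfolded glycoproteins, ranged from 18.2 to 23.1 footprint CPM with a median of 19.5 in BCAA-free 5+3 mice, and was 24.7, 25.5, 23.4, 26.1 and 25.5 CPM in BCAA-free vehicle mice. It was 27.5, 30.1, 29.7 and 27.5 CPM in AA 5+3 mice and 37.5, 30.0, 24.3, 21.9 and 23.8 CPM in AA vehicle mice. The BCAA-free 5+3 mice were below both the BCAA-free vehicle and the AA 5+3 mice without overlap. Edem1 fell after 5+3 on the BCAA-free diet (log2 -0.34 ± 0.11, adjusted p = 0.0282, a call lost without any 1 of 6 of the 12 mice) and between the diets under 5+3 (log2 -0.53 ± 0.11, adjusted p = 0.00117).

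Derl2, a derlin of the retrotranslocation channel, ranged from 7.75 to 9.41 footprint CPM with a median of 8.56 in BCAA-free 5+3 mice, and was 8.16, 10.7, 9.76, 9.29 and 10.9 CPM in BCAA-free vehicle mice. It was 12.4, 15.5, 7.35 and 12.6 CPM in AA 5+3 mice and 7.50, 9.36, 9.30, 7.75 and 7.15 CPM in AA vehicle mice. Of the AA 5+3 mice, 3 were above all others and replicate 3 was among the lowest. Derl2 rose after 5+3 on the AA diet (log2 0.56 ± 0.16, adjusted p = 0.0391), a call lost without any 1 of 6 of the 9 mice, and fell between the diets under 5+3 (log2 -0.48 ± 0.15, adjusted p = 0.0178). Among the other degradation genes, Os9, a lectin of the ligase complex, averaged 119.5 ± 11.9 CPM in BCAA-free 5+3 mice, 142 ± 12.6 CPM in BCAA-free vehicle mice, 127 ± 6.61 CPM in AA 5+3 mice and 159.5 ± 11.5 CPM in AA vehicle mice (SD, n = 7, 5, 4 and 5). It fell after 5+3 on both diets (log2 -0.33, adjusted p = 0.034 on AA, and log2 -0.25, adjusted p = 0.0313 on BCAA-free), calls lost without any 1 of 6 of the 9 AA mice and any 1 of 8 of the 12 BCAA-free mice. Derl1 fell between the diets under 5+3 (log2 -0.31, adjusted p = 0.00854, and 0.0596 without AA 5+3 replicate 3), and Sel1l, the scaffold of the ligase, had log2 changes of 0.04 and -0.06 after 5+3 on the AA and BCAA-free diets.

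Sec24d encodes a cargo-selecting subunit of the COPII coat, which carries folded protein out of the compartment. It had the largest footprint change of the list after 5+3 on the AA diet and between the diets under 5+3. Its footprints ranged from 11.4 to 34.9 CPM with a median of 15.3 in BCAA-free 5+3 mice, and were 18.8, 13.3, 13.1, 21.8 and 12.5 CPM in BCAA-free vehicle mice. They were 45.3, 61.1, 64.0 and 43.6 CPM in AA 5+3 mice and 30.8, 25.8, 22.6, 20.2 and 18.3 CPM in AA vehicle mice. All other mice lay below the AA 5+3 mice. Sec24d rose 2.31-fold after 5+3 on the AA diet (log2 1.20 ± 0.29, adjusted p = 0.0175; 0.0519 without AA 5+3 replicate 2 and 0.0534 without replicate 3). Under 5+3 its diet difference was -1.38 ± 0.26 (adjusted p = 0.000836), and on the BCAA-free diet it had a log2 change of 0.38 after 5+3 (adjusted p = 0.33).

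Sec61a1, the pore of the translocation channel, ranged from 134 to 176 footprint CPM with a median of 159 in BCAA-free 5+3 mice, and was 159.9, 149, 144, 164 and 174 CPM in BCAA-free vehicle mice. It was 189, 208, 224 and 182 CPM in AA 5+3 mice and 165, 172, 134, 147 and 135 CPM in AA vehicle mice. Again the AA 5+3 mice were the highest, without overlap. Sec61a1 rose 1.33-fold after 5+3 on the AA diet (log2 0.41 ± 0.10, adjusted p = 0.0125) and fell between the diets under 5+3 (log2 -0.36 ± 0.09, adjusted p = 0.00517). Ssr1, of the translocon-associated complex, passed in none of the 5 comparisons. Ufm1, a ubiquitin-like modifier attached to ribosomes at the compartment, went the other way between the diets under 5+3: it averaged 14.2 ± 2.10 CPM in BCAA-free 5+3 mice (SD, n = 7) and 8.75 ± 0.468 CPM in AA 5+3 mice (n = 4; log2 0.69 ± 0.16, adjusted p = 0.00201).

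In mRNA the same mice gave fewer calls. After 5+3 on the AA diet, 0 of 33 members passed edgeR's quasi-likelihood test, where 0.0616% of all 21114 genes did (0.0189% higher and 0.0426% lower); DESeq2 also gave 0, and 2 members had an unadjusted p under 0.05. The spread was wider: the median SE of a member's log2 change was 0.29 in mRNA and 0.13 in footprints. The members' median log2 change was 0.21 in mRNA (all genes -0.01), and 14 of the 15 members with raised footprints had a positive mRNA change, with a median of 0.34, the exception being Derl2 (-0.14). Most of the 33 members had a positive mRNA change here, called or not. For members with lower footprints the signs matched less. Of the 24 lower between the diets under 5+3, 16 had a negative and 8 a positive mRNA change. In the interaction it was 9 and 6 of 15, and after 5+3 on the BCAA-free diet 4 and 3 of 7. Footprints and mRNA of a mouse come from 1 lysate, so these signs are not independent observations.

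Hyou1, Creld2 and Manf were the members whose mRNA did not overlap between AA 5+3 and AA vehicle mice, all higher (1.92% of all genes lay so). Hyou1 mRNA was 56.9, 67.2, 59.8 and 54.1 CPM in AA 5+3 mice and 24.3, 23.5, 33.3, 38.5 and 19.4 CPM in AA vehicle mice (log2 1.10 ± 0.39, adjusted p = 0.544). Creld2 mRNA was 209, 224, 263 and 207 CPM in AA 5+3 mice and 152, 164, 128, 134 and 136 CPM in AA vehicle mice (log2 0.66 ± 0.25, adjusted p = 0.6). Hspa5 mRNA was 932, 823, 535 and 547 CPM in AA 5+3 mice and 324, 581, 242, 938 and 320.2 CPM in AA vehicle mice, with overlap through AA vehicle replicate 4 (log2 0.56 ± 0.42, adjusted p = 1). That library had the highest mRNA value of its group for 23 of the 33 members.

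After 5+3 on the BCAA-free diet, 2 members rose and 1 fell in mRNA (9.09% of the members, against 8.56% of all genes, 4.33% higher and 4.23% lower). Ero1l mRNA ranged from 94.6 to 337 CPM with a median of 163 in BCAA-free 5+3 mice and was 74.5, 55.4, 64.6, 103 and 54.0 CPM in BCAA-free vehicle mice. Vehicle replicate 4 was the 1 vehicle mouse to reach the range of the 5+3 mice (log2 1.41 ± 0.35, adjusted p = 0.0209). Calr mRNA averaged 1024 ± 264 CPM in BCAA-free 5+3 mice and 609 ± 128 CPM in BCAA-free vehicle mice (SD, n = 7 and 5; log2 0.75 ± 0.23, adjusted p = 0.0479). Dnajb9 mRNA averaged 9.95 ± 2.98 CPM in BCAA-free 5+3 mice and 17.9 ± 2.79 CPM in BCAA-free vehicle mice (log2 -0.85 ± 0.25, adjusted p = 0.0388). Of the 12 refits that left out 1 of these mice, 8 lost the Calr call, 8 the Dnajb9 call and 2 the Ero1l call. In mRNA 6 of 8 erythroid and 7 of 7 neutrophil markers fell in the same comparison, and their part was not tested. An earlier analysis of these data had set apart the mRNA libraries of 4 mice (BCAA-free vehicle replicates 1, 2 and 5 and BCAA-free 5+3 replicate 7), and without these mice 0 members passed. On the first principal component computed here, the 3 vehicle libraries lay at 45.4, 52.9 and 88.7, above the other mice (up to 36.4), while 5+3 replicate 7 lay among the others at 17.7.

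Between the diets under 5+3, Creld2 was the 1 member to fall in mRNA (0.682% of all genes fell and 1.24% changed in either direction). Its mRNA ranged from 67.7 to 151 CPM with a median of 119 in BCAA-free 5+3 mice and was 209, 224, 263 and 207 CPM in AA 5+3 mice. The groups did not overlap (2.65% of all genes lay so), and the log2 difference was -0.95 ± 0.23 (adjusted p = 0.0357), a call lost without any 1 of 9 of the 11 mice compared. Between the diets with vehicle 0 members passed (0% of all genes), with 4 at an unadjusted p under 0.05, and in the interaction 0 passed (0.0758% of all genes, 0.0237% higher and 0.0521% lower), with 6 at an unadjusted p under 0.05. DESeq2 also gave 0 in both.

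**Figure D4:**
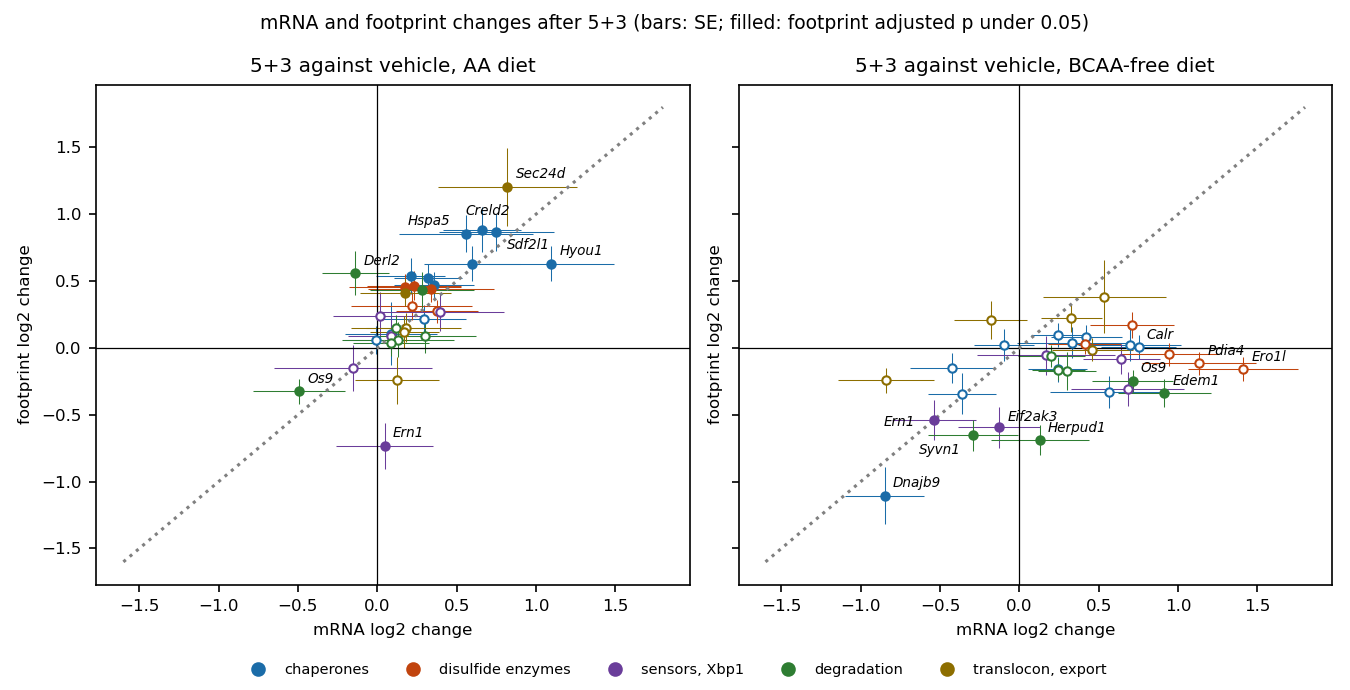
Log2 change after 5+3 in mRNA (horizontal axis) and footprints (vertical axis) of the 33 genes on the AA diet (left) and the BCAA-free diet (right), with SE bars; colours show the role, filled points have a footprint adjusted p under 0.05, and the dotted line marks equal change. On the AA diet 29 genes have a positive footprint change and the same number a positive mRNA change, while on the BCAA-free diet Ero1l, Pdia4 and Edem1 lie far right of the line with footprint changes below 0.

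Translational efficiency is the footprint change relative to the mRNA change of the same mice, fitted with both kinds of library in 1 model. After 5+3 on the BCAA-free diet it fell for 3 members, where 3.94% of all 12097 genes fell and 3.51% rose (7.45% in all). These were Ero1l (log2 -1.36 ± 0.30, adjusted p = 0.028), Pdia4 (-1.10 ± 0.33, adjusted p = 0.0478) and Edem1 (-1.02 ± 0.32, adjusted p = 0.0497). Pdia4 mRNA ranged from 106 to 317 CPM with a median of 199 in BCAA-free 5+3 mice and was 90.0, 58.9, 83.2, 172 and 72.0 CPM in BCAA-free vehicle mice. Edem1 mRNA ranged from 70.8 to 237 CPM with a median of 164 in BCAA-free 5+3 mice and was 62.6, 86.2, 86.5, 99.9 and 79.5 CPM in BCAA-free vehicle mice. In both genes the 5+3 mice were mostly higher in mRNA, with overlap, and their mRNA log2 changes of 1.13 ± 0.36 and 0.91 ± 0.29 had adjusted p of 0.0508 and 0.0526. Without the 4 mice set apart earlier, 0 members passed. In the other comparisons 0 members passed, where at most 0.00827% of all genes did; DESeq2 also gave 0, and 2 to 4 members had an unadjusted p under 0.05.

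Further genes of the compartment, 112 in 8 lists, were examined beside the members, and 104 of them were tested in footprints. After 5+3 on the AA diet 12 rose and 1 fell (11.5% and 0.962%). These included 5 of 17 translocon and signal-recognition genes, among them Ssr3 (log2 0.43, adjusted p = 0.00682) and the receptor subunit Srpr (0.48, adjusted p = 0.00937), and 4 of 18 export genes, among them the retrieval receptor Kdelr2 (0.56, adjusted p = 0.00184) and Surf4 (0.37, adjusted p = 0.00604). The glycosylation genes Mogs (0.53) and Stt3a (0.32) and the degradation cofactor Nploc4 (0.37) also rose, and the ufmylation adaptor Ddrgk1 fell (-0.50). None of the 20 other folding genes passed, where the unadjusted counts over the 104 were 26 higher and 4 lower.

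Under 5+3, 32 of the 104 were lower and 8 higher in BCAA-free than in AA mice (30.8% and 7.69%). By list, 8 of 18 export genes, 6 of 14 glycosylation genes, 5 of 17 translocon genes, 5 of 20 folding genes and 4 of 17 degradation genes fell. Sdf2, the paralogue of Sdf2l1, fell by 0.91 on the log2 scale (adjusted p = 2.96e-05), Nfya, a subunit of the NF-Y factor that binds CCAAT, by 0.82 (adjusted p = 3.08e-05) and Preb, which starts COPII coat assembly, by 0.83 (adjusted p = 0.000104). The nucleotide exchange factor Sil1 rose (log2 0.49). After 5+3 on the BCAA-free diet 7 rose and 11 fell (6.73% and 10.6%), among them Sdf2 (-0.76, adjusted p = 0.000277), Nfya (-0.68, adjusted p = 0.000291), Preb (-0.69, adjusted p = 0.000822) and the protease Mbtps1, which cuts ATF6 (-0.58). In the interaction 8 were lower and 0 higher (2 were higher at an unadjusted p under 0.05), led by Sec24c (-0.76, adjusted p = 0.00288) and Sdf2 (-0.91, adjusted p = 0.00647), and with vehicle Ssr4 was the 1 gene to differ (0.37, adjusted p = 0.0381).

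Of 8 listed genes of the PERK and eIF2α branch, 3 were tested in footprints (Atf4, Ppp1r15b and Eif2s1). Eif2s1 encodes eIF2α itself, the substrate of PERK. Atf4, the transcription factor whose translation eIF2α phosphorylation favours, averaged 18.0 ± 5.53 footprint CPM in BCAA-free 5+3 mice, 17.8 ± 5.92 CPM in BCAA-free vehicle mice, 24.1 ± 6.78 CPM in AA 5+3 mice and 20.2 ± 10.6 CPM in AA vehicle mice (SD, n = 7, 5, 4 and 5). Its footprint log2 changes after 5+3 were 0.23 on the AA diet and 0.02 on the BCAA-free diet, and it passed in none of the 5 comparisons. Ddit3, which encodes the pro-apoptotic factor CHOP, and Ppp1r15a, which encodes the eIF2α phosphatase subunit GADD34, had too few footprints to test. In mRNA Ddit3 ranged from 12.5 to 24.9 CPM with a median of 15.8 in BCAA-free 5+3 mice and was 40.3, 42.1, 28.3, 35.7 and 56.9 CPM in BCAA-free vehicle mice. It was 25.6, 30.7, 39.8 and 36.5 CPM in AA 5+3 mice and 24.1, 24.9, 28.6, 31.9 and 31.9 CPM in AA vehicle mice.

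The BCAA-free 5+3 mice did not overlap the BCAA-free vehicle or AA 5+3 mice in Ddit3 mRNA. Ddit3 fell after 5+3 on the BCAA-free diet (log2 -1.25 ± 0.20, adjusted p = 0.00229) and between the diets under 5+3 (-0.96 ± 0.22, adjusted p = 0.0225), and had a log2 change of 0.23 on the AA diet (adjusted p = 1). Atf4 mRNA fell after 5+3 on the BCAA-free diet (-0.62 ± 0.20, adjusted p = 0.0488) and had a log2 change of 0.50 on the AA diet (adjusted p = 0.763). Refits that left out mice covered the members only, so the Ddit3 and Atf4 calls were not checked in that way. Erythroid and neutrophil markers also fell in mRNA after 5+3 on the BCAA-free diet, and their part was not tested. Ppp1r15a mRNA had log2 changes of 0.69 on the AA diet (adjusted p = 1) and 1.20 ± 0.69 on the BCAA-free diet (adjusted p = 0.265).

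Within groups, the members varied together from mouse to mouse. After subtracting group means from log2 CPM, the median pairwise correlation across the 21 mice was 0.263 over the 31 members with at least 10 footprint CPM on average and 0.00408 over all such genes. In mRNA it was 0.392 over all 33 members and 0.0166 over all such genes. These are descriptions across mice that share library preparation and differ in depth. The genes whose footprint deviations were most like those of Hspa5 were Hyou1 (r = 0.951), Sec61a1 (0.867), Gm12799 (0.850) and Larp1 (0.838), the first and second of them members. In mRNA they were Rrm2 (r = 0.976), Kpna2 (0.958), Eif4a1 (0.958) and Ppt1 (0.957), none of them a member, and Xbp1, at rank 11 (0.943), was the 1 member among the nearest 20.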

How the data were processed

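Per the labels, viable GFP-positive MLL-AF9 cells were sorted from bone marrow, lysed with cycloheximide, and split into an mRNA library (Smart-seq2) and a footprint library (Ribo-lite). The authors deposited raw gene counts, whole numbers without normalization, in 1 table per kind of library. Tools named in the submitters' processing notes are featureCounts, STAR, Bowtie2, cutadapt and SAMtools, with the build GRCm38 (mm10). What each did, its version, the annotation and the strand mode were not given in the sources used here, so reads of overlapping genes cannot be told apart (13 of the 33 members overlap another RefSeq gene), and near-identical copies such as pseudogenes may share reads. All columns matched a sample (0 left without one), and 55141 of 55487 identifiers (99.4%) matched a symbol.

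Members, lists and alternatives were chosen with earlier results of these data known. Groups came from the labels, and replicates are separate mice. No 2 libraries of a group agreed within counting noise (lowest chi-square per degree of freedom 4.34 in footprints and 39.8 in mRNA, over 47 pairs each).

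Tests used edgeR 4.0.16 (R 4.3.3). Low genes were removed with filterByExpr (minimum count 10, total 15), libraries were scaled by TMM, and all 4 groups entered 1 robust quasi-likelihood fit, separately for footprints (15723 genes) and mRNA (21114). P-values were adjusted by Benjamini-Hochberg over all genes tested, with a threshold of 0.05. Translational efficiency came from 1 fit over both kinds of library (12097 genes) with the mouse as a block, since both libraries of a mouse come from 1 lysate and carry the same number in the labels. Their deviations from group means correlated with a median r of 0.156, and 12 of 21 mice matched their own partner best. The fits were tested on simulated counts. CPM values of single genes are counts per 1000000 counts of the genes kept by the filter, with library sizes scaled by TMM. Sums and shares over lists use all gene counts of a library, without TMM scaling. Alternatives were DESeq2 1.42.0, RLE size factors, no filter, only the compared groups, the replicate number as a block, leaving out each mouse, leaving out the 4 mice set apart earlier, and, added after seeing the data, leaving out the 2 shallowest footprint libraries. Python 3.11.15 with matplotlib 3.10.9 drew the figures.

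Values by mouse are given for members past the threshold in at least 2 of 5 footprint comparisons, or in 1 of the others, up to 4 per role by smallest adjusted p, and for all sensors and Xbp1. From the other lists, up to 3 genes per list and comparison are eligible, and Atf4, Ddit3 and Ppp1r15a always. The zero counts of 1 marker gene are not reported here.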

Additional observations from a re-analysis of the deposited data

Results flagged for a closer look

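For 15 genes the footprint change after 5+3 differed between the diets by a direct test of that difference (edgeR's quasi-likelihood test, interaction, Benjamini-Hochberg adjusted over all genes). The difference of log2 changes, BCAA-free minus AA, was -1.18 for Hspa5, -0.59 for Hyou1, -0.84 for Sdf2l1, -1.23 for Creld2, -1.21 for Dnajb9, -0.68 for Dnajc3 and -0.78 for Manf among the chaperones. It was -0.51 for Pdia3, -0.56 for Pdia4 and -0.47 for Ero1l among the disulfide enzymes. It was -0.83 for the sensor Eif2ak3, -0.75 for Herpud1, -1.09 for Syvn1, -0.74 for Derl2 and -0.43 for Sec61a1.

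In 13 of 272 sets of values (4.78%, where chance gives about 5%) 1 library stood far from the rest of its group. In footprints, AA vehicle replicate 3 was high for Hsp90b1 (1039.5 CPM, others 794.6 to 862.87), Canx (771.98, others 563.63 to 619.74) and Pdia3 (614.59, others 538.92 to 558.64). BCAA-free vehicle replicate 3 was high in the summed members (7019.8 CPM, others 6454.4 to 6532.8), BCAA-free 5+3 replicate 1 in Edem1 (23.1 CPM, others 18.2 to 20.2) and BCAA-free 5+3 replicate 5 in Ufm1 (18.5 CPM, others 12.2 to 14.7).

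In mRNA, AA vehicle replicate 4 was high for Ssr1 (463 CPM, others 297 to 336). AA 5+3 replicate 4 was low for Syvn1 (29.8 CPM, others 49.6 to 53.4), Ssr1 (308 CPM, others 413 to 435) and Sec24d (16.3 CPM, others 23.7 to 24.4). BCAA-free vehicle replicate 4 was high for P4hb (685 CPM, others 429 to 501) and Pdia4 (172 CPM, others 58.9 to 90.0), and BCAA-free 5+3 replicate 4 was high for Ern1 (20.8 CPM, others 7.90 to 13.0).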

How the results depend on the processing

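Of the 71 calls on members, 379 of 423 refits under other settings and 758 of 910 refits without 1 mouse kept the call, and 0 reversed. Members called in footprints after 5+3 on the AA diet (17) numbered 14 to 19 under other settings and 11 to 17 without 1 mouse, on the BCAA-free diet (7) 6 to 7 and 5 to 8, and between the diets under 5+3 (25) 22 to 25 and 22 to 25. Between the diets with vehicle (0) DESeq2 gave 1, and leaving out 1 mouse gave 0 to 1, the 1 without BCAA-free vehicle replicate 5. In the interaction (15) the replicate block gave 8, with the replicate number as the block, and leaving out 1 mouse gave 9 to 17. In mRNA after 5+3 on the BCAA-free diet (3), DESeq2 gave 8, the replicate block 8, only the compared groups 1, leaving out the 4 mice set apart earlier 0, and leaving out 1 mouse 0 to 9. The count was 0 without BCAA-free 5+3 replicate 5 or vehicle replicate 2, 1 without 5+3 replicate 2 or 4 or vehicle replicate 3, 5 without vehicle replicate 4, 6 without 5+3 replicate 3 and 9 without 5+3 replicate 7. Between the diets under 5+3 in mRNA (1), DESeq2 gave 2, the replicate block 0, and leaving out 1 mouse 0 to 1. For translational efficiency after 5+3 on the BCAA-free diet (3), DESeq2 gave 5, no filter 5, leaving out the 4 mice 0, and leaving out 1 mouse 0 to 7, with 0 without BCAA-free 5+3 replicates 1, 2, 4 or 5 or vehicle replicates 2 or 5. The cause of these shifts was not tested. The replicate block moved no other count by over 1.5 times. Replicate numbers do not pair mice across groups in the labels, and the correlation of same-numbered mice was not above 0.1 in every pair. RLE scaling moved members' called changes by at most 0.04 on the log2 scale. Leaving out the 2 shallowest footprint libraries, chosen after seeing the data, gave 16 members after 5+3 on the AA diet and 17 in the interaction. Footprint depth limits the low members: Dnajb9, Derl2, Eif2ak3 and Ern1 had 17 to 24 counts in their lowest library, and p-values measure the spread between mice of 1 leukaemia only.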
